A study of Mus musculus with 4 samples.

Results

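The Nrf2 pathway was described here through 10 genes of the 21834 in the deposited count table: Nfe2l2, Keap1, Sqstm1, Slc7a11, Nqo1, Gclm, Gclc, Txnrd1, Srxn1 and Prdx1. They were taken by gene symbol, and the set was chosen by values of the same comparison in the same libraries, known from an earlier analysis. Their differences between the groups are therefore descriptions, and where the calls of the fit over all genes are counted for them, nothing is read from the count. rRNA-depleted RNA was sequenced from mouse bone marrow derived monocytes and macrophages (BMDMs) after 3 days with RANKL, the cytokine that turns these precursors into bone-resorbing osteoclasts. Of the 4 libraries, 2 are labelled as a Nat10 conditional knockout (cKO) and 2 as wild type (WT), and both groups received the same differentiation treatment and a wash with cycloheximide, an inhibitor of translation, before lysis. The Nat10 protein is an RNA acetyltransferase that makes N4-acetylcytidine, and the study compared osteoclast differentiation of conditional knockout and WT cells. The Cre driver, the deleted exons, and the strain, age and sex of the mice were not stated in the labels.

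Nrf2, the protein encoded by Nfe2l2, is a transcription factor that pairs with small Maf proteins and binds antioxidant response elements in the DNA of its target genes. Keap1 is the adaptor through which a Cul3 ubiquitin ligase marks Nrf2 for degradation, and oxidants or electrophiles that modify Keap1 let Nrf2 accumulate. Sqstm1 (p62) is an autophagy receptor that binds Keap1 and is itself a target of Nrf2. RANKL signalling raises reactive oxygen species in osteoclast precursors, mouse precursors that lack Nrf2 form osteoclasts more readily, and Sqstm1 binds the RANK signalling adaptor Traf6 and is mutated in Paget's disease of bone in humans.

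The libraries labelled Nat10 cKO held 11291993 and 14097638 counts and the WT libraries 10037338 and 13063821. The targeted gene left the labels unchecked, since its RNA was not called as changed and the position of the deletion is not known. Nat10 had 15.9 and 14.3 CPM in Nat10 cKO-labelled libraries, against 16.8 and 18.6 CPM in WT, which is -0.24 on the log2 scale (SE 0.153, adjusted p = 0.263 in edgeR). The direction of every difference below rests on the labels. CPM is the count of a gene scaled to a common library total, here with TMM factors. In the marker lists that follow, rose and fell mean an edgeR adjusted p under 0.05. Over all genes tested 14.4% passed in each direction. The 8 macrophage markers summed to 30290 and 34154 CPM in Nat10 cKO-labelled libraries, against 19257 and 21233 CPM in WT, with the most CPM in Lyz2, and 4 of them rose and 1, Cd14, fell. The 9 osteoclast markers summed to 6146 and 6876 CPM, against 4772 and 5053 CPM in WT. Of these, 6 rose and 2 fell, Calcr (-0.95 on the log2 scale) and Dcstamp (-0.42), and no gene of either list was at 0 in all libraries. Markers of other cells differed too. The 11 stromal markers summed to 1131 and 1102 CPM in Nat10 cKO-labelled libraries, against 307 and 284 CPM in WT, and 10 of the 10 tested rose. The 9 neutrophil markers summed to 806 and 908 CPM, against 499 and 485 CPM in WT, where 4 of 6 tested rose and Mmp8 fell. The 7 hepatocyte markers, led by Alb, summed to 0.949 and 1.11 CPM in Nat10 cKO-labelled libraries, against 55.0 and 24.7 CPM in WT. The 8 B and T cell markers summed to at most 3.71 CPM in any library, with Cd3d and Cd3g at 0 in all. The part of other cells in the results below was not tested, and fewer cells of a type cannot be told apart from less RNA per cell.

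Promoter sequence is shown first for the 3 genes with the largest differences, Nqo1, Sqstm1 and Slc7a11, and for 3 target genes with smaller ones, Srxn1, Prdx1 and Gclm. Each line gives the 250 bases before the RefSeq transcription start, 5′ to 3′ on the strand of the gene, with every motif match in capitals. On GRCm38.p6 the stretches are chr8:107403206-107403455 (minus strand) for Nqo1, chr11:50210821-50211070 (minus strand) for Sqstm1, chr3:50443614-50443863 (minus strand) for Slc7a11, chr2:152105274-152105523 (plus strand) for Srxn1, chr4:116685349-116685598 (plus strand) for Prdx1 and chr3:122245307-122245556 (plus strand) for Gclm.
Nqo1: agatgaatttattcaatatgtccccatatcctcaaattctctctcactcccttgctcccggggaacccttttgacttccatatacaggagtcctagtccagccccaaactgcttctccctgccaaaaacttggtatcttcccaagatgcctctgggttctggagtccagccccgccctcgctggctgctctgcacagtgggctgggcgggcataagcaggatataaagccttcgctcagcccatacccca
Sqstm1: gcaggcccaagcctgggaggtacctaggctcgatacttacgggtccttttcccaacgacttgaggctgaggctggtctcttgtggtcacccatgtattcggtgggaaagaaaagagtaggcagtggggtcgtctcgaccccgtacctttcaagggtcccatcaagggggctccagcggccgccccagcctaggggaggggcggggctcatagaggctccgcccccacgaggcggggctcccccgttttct
Slc7a11: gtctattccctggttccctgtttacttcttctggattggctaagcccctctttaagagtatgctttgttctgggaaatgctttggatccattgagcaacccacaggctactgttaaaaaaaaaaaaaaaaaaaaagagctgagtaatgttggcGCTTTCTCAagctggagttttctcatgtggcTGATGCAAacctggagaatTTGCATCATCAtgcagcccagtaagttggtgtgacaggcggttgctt
Srxn1: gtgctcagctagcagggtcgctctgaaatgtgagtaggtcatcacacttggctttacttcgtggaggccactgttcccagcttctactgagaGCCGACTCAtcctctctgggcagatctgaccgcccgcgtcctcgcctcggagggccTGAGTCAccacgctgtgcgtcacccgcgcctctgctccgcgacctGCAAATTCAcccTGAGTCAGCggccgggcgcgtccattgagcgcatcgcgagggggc
Prdx1: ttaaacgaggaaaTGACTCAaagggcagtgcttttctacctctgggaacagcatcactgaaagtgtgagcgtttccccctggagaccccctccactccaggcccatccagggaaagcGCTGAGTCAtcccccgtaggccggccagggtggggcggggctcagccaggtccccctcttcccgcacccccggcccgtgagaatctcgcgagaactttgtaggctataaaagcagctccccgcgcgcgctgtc
Gclm: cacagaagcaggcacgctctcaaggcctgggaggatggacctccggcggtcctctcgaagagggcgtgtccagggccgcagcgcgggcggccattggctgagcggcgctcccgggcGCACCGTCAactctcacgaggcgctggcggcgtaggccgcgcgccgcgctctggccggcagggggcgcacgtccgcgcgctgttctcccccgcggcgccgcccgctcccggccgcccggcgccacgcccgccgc

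A set of 4 motifs was searched on both strands of the 300 bases from 250 before to 50 after each start: the antioxidant response element core TGANNNNGC, its stricter form TGACNNNGC, the AP-1 motif TGANTCA, and TGATGNAA, the C/EBP-ATF element through which ATF4 acts. The windows of Sqstm1 and Nqo1 held no match to any of them, which says only that these letters are not in this window. Slc7a11 held 2 C/EBP-ATF matches, starting at positions -66 and -47 from the start, and the second overlapped 1 of its 3 antioxidant response element matches, at -45. Srxn1 held 4 antioxidant response element matches and 2 AP-1 matches, and the AP-1 match at -45 lies inside the antioxidant response element match at -45. In Prdx1 the antioxidant response element match at -133 overlapped the AP-1 match at -131. Gclm held 1 antioxidant response element match, at -134. Matches of Slc7a11 at 41, Srxn1 at 28 and Prdx1 at 15 lie after the start and outside the printed bases. The 9 of 10 genes with a promoter in the table have 11 annotated starts. Of these 11 windows 8, from 7 genes, held TGANNNNGC, beside 41.3% of all 32851 RefSeq promoter windows. The stricter form, whose matches all lie within those of the core, stood in 5 of the 11, beside 12.4% of all windows. AP-1 matches stood in 2 of the 11, beside 7.81% of all windows. The C/EBP-ATF letters stood in 1 of the 11, that of Slc7a11, beside 3.97% of all windows, a motif added after the values were seen. Gclc had no entry. These matches are letters, and binding was not measured.

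**Figure D1:**
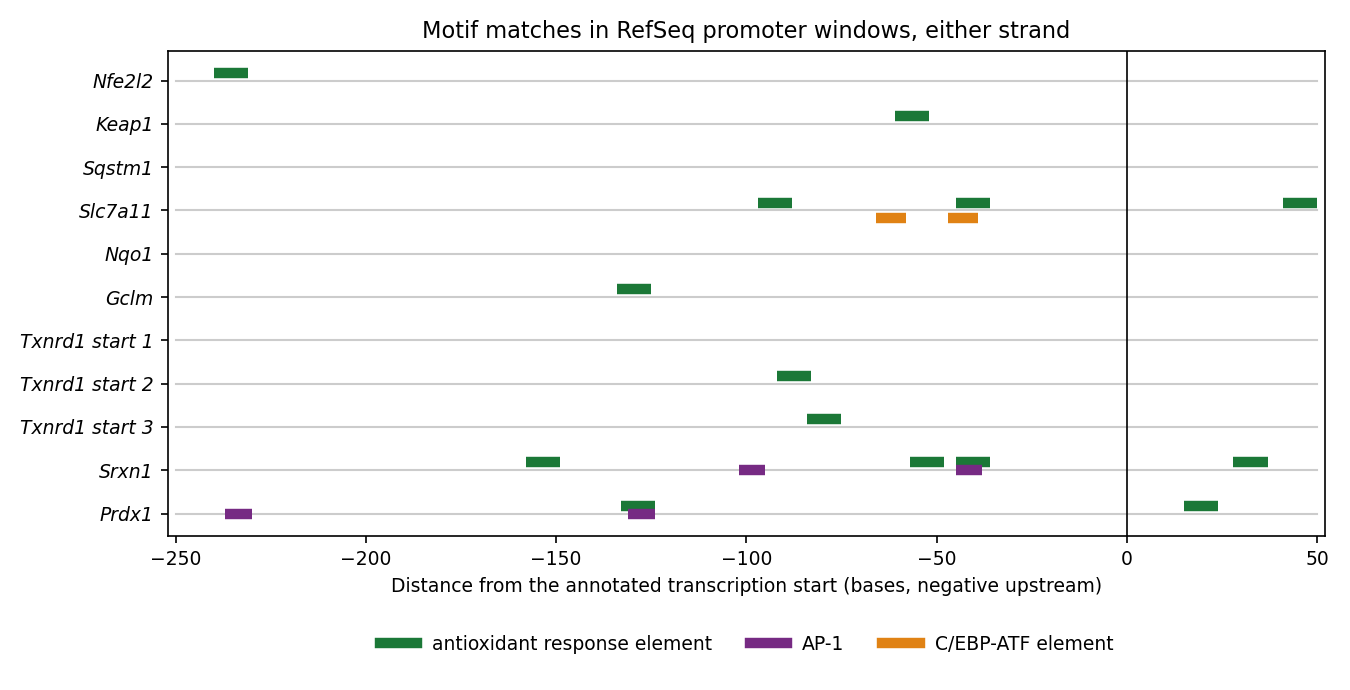
Positions of motif matches (coloured bars, either strand) in the RefSeq promoter windows of 9 Nrf2 pathway genes, with the distance from the annotated transcription start in bases on the x axis and 1 row per start. The rows of Sqstm1, Nqo1 and Txnrd1 start 1 are empty, and the C/EBP-ATF matches lie in the Slc7a11 row alone.

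All 10 genes passed the filter on low counts. In the libraries labelled Nat10 cKO relative to WT, Nqo1, Slc7a11, Sqstm1 and Keap1 had log2 fold changes from -1.23 to -0.71, Txnrd1 and Srxn1 of -0.41 and -0.33, and Prdx1, Gclm, Nfe2l2 and Gclc lay between -0.25 and 0.03. The median of the 10 log2 fold changes was -0.37, beside 0.01 over all 11448 genes tested. In the edgeR fit, 6 of the 10 had an adjusted p under 0.05, all of them lower, and 0 were higher. Over all genes tested 28.8% passed, 14.4% higher and 14.4% lower. For 8 of the 10 neither Nat10 cKO-labelled library reached the lower WT value, and for 2 the groups overlapped. Over all genes tested the groups did not overlap for 63.6%, made up of 32.3% that lay higher and 31.3% that lay lower in Nat10 cKO-labelled libraries. Since the set was chosen with this comparison known, nothing is read from these counts. Together the 10 genes took 1.24% and 1.36% of all counts in Nat10 cKO-labelled libraries, against 1.61% and 1.66% in WT.

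**Figure D2:**
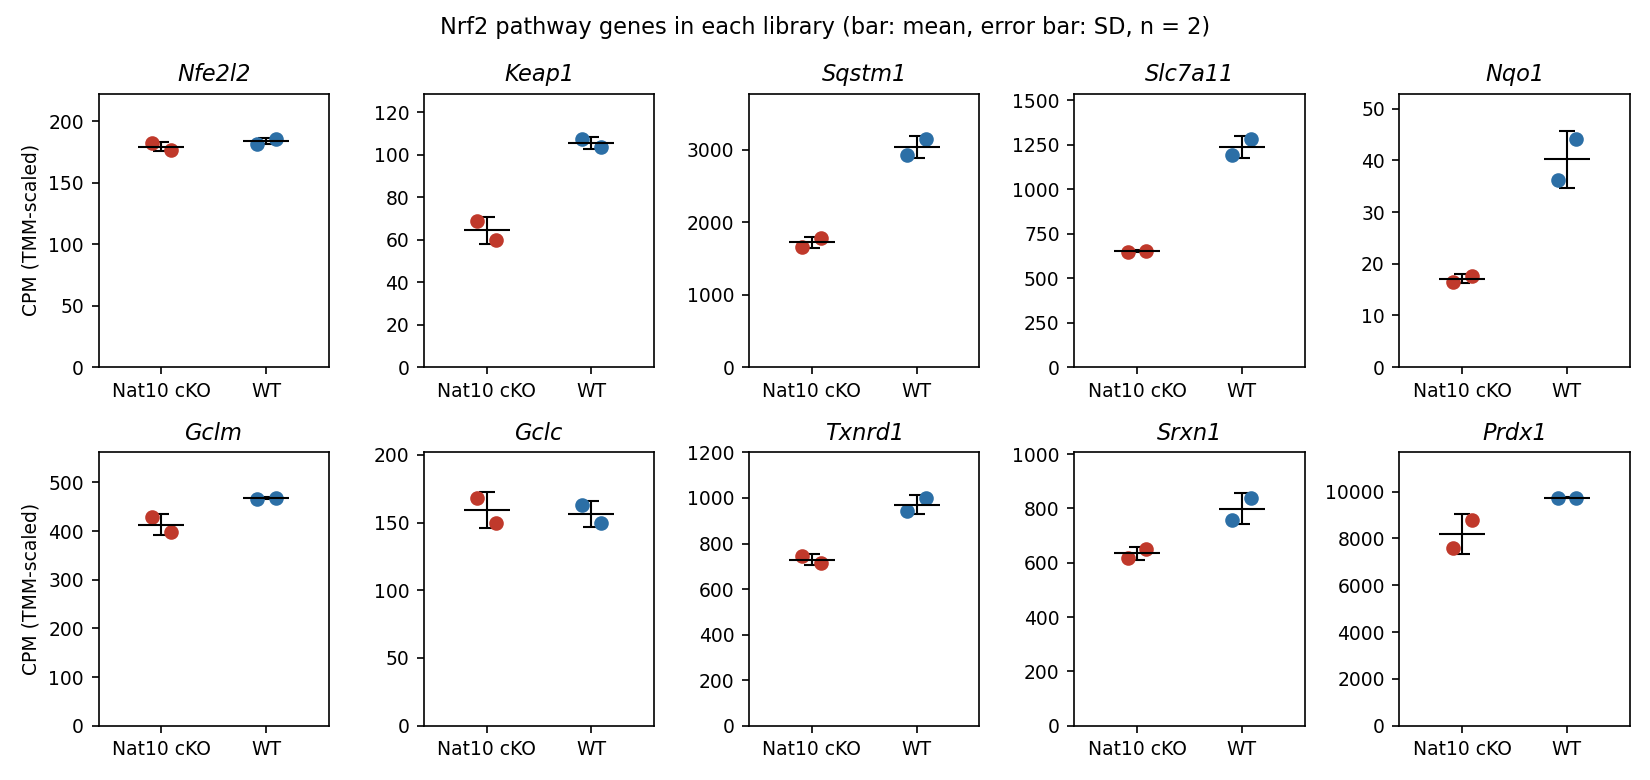
CPM (y axis, from 0) of the 10 Nrf2 pathway genes in each library, with libraries labelled Nat10 cKO left (red) and WT right (blue), and bars for the mean and SD of 2 libraries. The groups stand apart for Keap1, Sqstm1, Slc7a11, Nqo1, Txnrd1 and Srxn1, stand close for Gclm and Prdx1, and overlap for Nfe2l2 and Gclc.

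Of the transcription factor and its inhibitor, the inhibitor alone had groups that did not overlap. Nfe2l2 (ENSMUSG00000015839, GRCm39 chromosome 2, 75505857 to 75534985) had 182 and 177 CPM in Nat10 cKO-labelled libraries, against 182 and 185 CPM in WT. The groups overlapped, and the log2 fold change was -0.03 (SE 0.0947), with a positive sign under upper-quartile factors (0.06) and library size only (0.03). Keap1 (ENSMUSG00000003308, chromosome 9, 21141026 to 21150657) had 69.0 and 59.8 CPM in Nat10 cKO-labelled libraries, against 107 and 104 CPM in WT. Both libraries labelled Nat10 cKO lay below WT, with a log2 fold change of -0.71 (SE 0.107) and a range of -0.83 to -0.61 over 10 alternative analyses. Protein was not measured. An antisense gene overlaps Keap1 in GENCODE M21, and the strand setting of the counting was not stated in the labels.

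Sqstm1, which binds Keap1 and carries ubiquitinated cargo to autophagosomes, had the second highest level of the 10 per kilobase. Sqstm1 (ENSMUSG00000015837, chromosome 11, 50090193 to 50101654) had 1664 and 1776 CPM in Nat10 cKO-labelled libraries, against 2931 and 3145 CPM in WT. These rest on 19293 and 25488 counts, against 28700 and 40153 in WT. The groups did not overlap, and the log2 fold change was -0.82 (SE 0.0945), between -0.88 and -0.72 over the alternatives. Mrnip, a protein-coding gene that overlaps Sqstm1 on the other strand in GENCODE M21, had 4 and 7 counts in Nat10 cKO-labelled libraries, against 1 and 3 in WT. The genes whose scaled profile over the 4 libraries lay nearest to that of Sqstm1, among 7776 genes with a mean of at least 10 CPM, were Rffl (Euclidean distance 0.0396 in centred log2 CPM), Tapbp (0.0405) and Tusc1 (0.0435). The 4 libraries form 2 groups, so likeness here is chiefly a like difference between the groups.

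Slc7a11 encodes the light chain of the cystine/glutamate exchanger, which brings in cystine for glutathione synthesis, and is a target of both Nrf2 and ATF4. Slc7a11 (ENSMUSG00000027737, chromosome 3, 49846975 to 50398063) had 650 and 655 CPM in Nat10 cKO-labelled libraries, against 1193 and 1281 CPM in WT. The 2 libraries labelled Nat10 cKO differed little from each other, and both lay below WT, with a log2 fold change of -0.92 (SE 0.0919, range -0.98 to -0.83 over the alternatives). Its nearest profiles were those of Ogfr (distance 0.0427), Pik3r1 (0.0492) and Dusp16 (0.0583). Several pseudogenes and an antisense gene lie within the Slc7a11 locus in GENCODE M21.

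The 2 subunits of glutamate cysteine ligase, which makes the first step of glutathione synthesis from the cysteine that Slc7a11 supplies, had log2 fold changes nearer to 0 than that of Slc7a11. Gclc, the catalytic subunit (ENSMUSG00000032350, chromosome 9, 77661817 to 77701767), had 168.4 and 149.98 CPM in Nat10 cKO-labelled libraries, against 163.1 and 149.67 CPM in WT. Its groups overlapped, and its log2 fold change of 0.03 (SE 0.101) ranged from -0.07 to 0.12 over the alternatives. Gclm, the modifier subunit (ENSMUSG00000028124, chromosome 3, 122039206 to 122064381), had 428 and 398 CPM in Nat10 cKO-labelled libraries, against 466 and 469 CPM in WT. Both libraries labelled Nat10 cKO lay below WT, with a log2 fold change of -0.18 (SE 0.0916, range -0.24 to -0.08). Per kilobase, the ratio of Gclm to Gclc was 1.52 and 1.59 in Nat10 cKO-labelled libraries, against 1.71 and 1.87 in WT.

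Nqo1, a quinone reductase and a standard readout of Nrf2 activity, had the largest fold difference and the fewest counts of the 10. Nqo1 (ENSMUSG00000003849, chromosome 8, 108114857 to 108129838) had 192 and 254 counts in Nat10 cKO-labelled libraries, against 355 and 563 in WT. That is 16.6 and 17.7 CPM, against 36.3 and 44.1 CPM in WT, with no overlap. The log2 fold change was -1.23 (SE 0.136, range -1.37 to -1.09 over the alternatives), below which lay 1.63% of all genes tested. The corresponding share was 3.06% for Slc7a11, 3.90% for Sqstm1 and 5.21% for Keap1, and for the other 6 it was between 13.5% and 51.98%. The genes were chosen with this comparison known, so nothing is read from these shares.

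**Figure D3:**
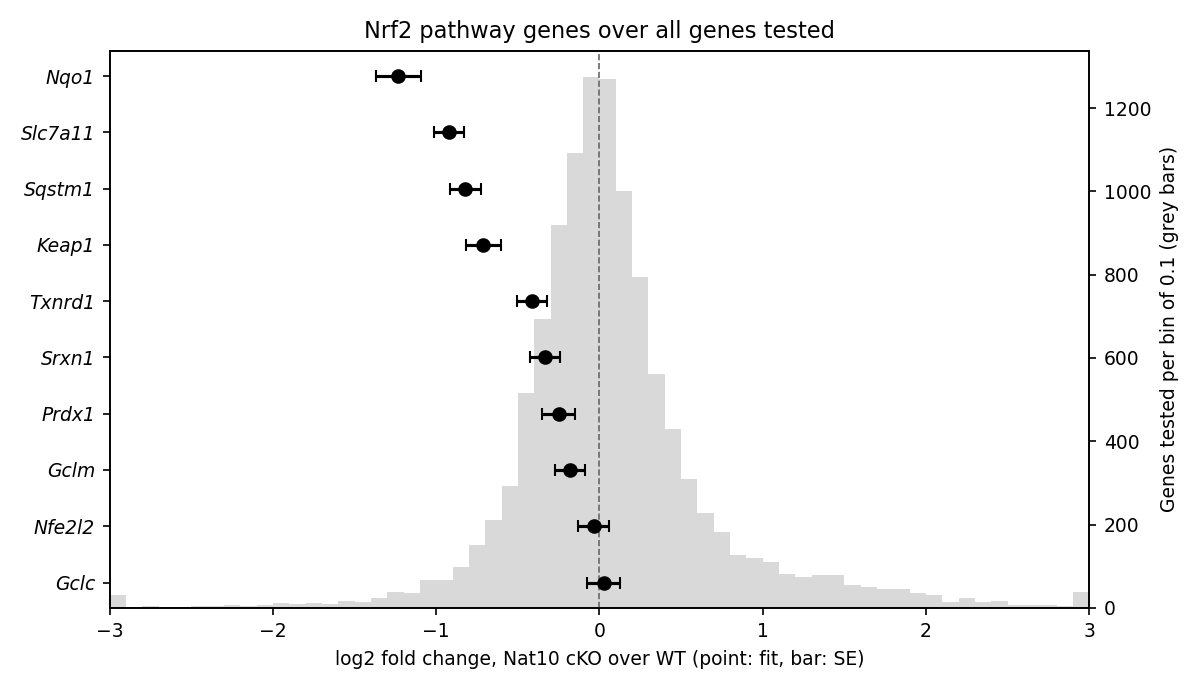
Log2 fold change (x axis, libraries labelled Nat10 cKO over WT) of the 10 Nrf2 pathway genes as points with SE bars, over a histogram of all 11448 genes tested in grey (right axis, values beyond 3 in either direction in the outermost bins). Nqo1, Slc7a11, Sqstm1 and Keap1 lie in the lower flank of the histogram, and Nfe2l2 and Gclc at its centre.

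The genes of the thioredoxin branch had smaller log2 fold changes. Txnrd1, the cytosolic thioredoxin reductase (ENSMUSG00000020250, chromosome 10, 82669785 to 82733546), had 747 and 712 CPM in Nat10 cKO-labelled libraries, against 941 and 1002 CPM in WT. Srxn1, the sulfiredoxin that repairs overoxidised peroxiredoxins (ENSMUSG00000032802, chromosome 2, 151947436 to 151953296), had 618 and 651 CPM, against 758 and 840 CPM in WT. In both genes the groups did not overlap, with log2 fold changes of -0.41 (SE 0.0915, range -0.46 to -0.32) for Txnrd1 and -0.33 (SE 0.0935, range -0.41 to -0.23) for Srxn1. Prdx1, a cytosolic peroxiredoxin and substrate of both systems (ENSMUSG00000028691, chromosome 4, 116542741 to 116558019), had 7575 and 8790 CPM in Nat10 cKO-labelled libraries, against 9722 and 9747 CPM in WT. Its groups did not overlap, but the 2 libraries labelled Nat10 cKO differed from each other by more than the higher of them from WT, and its log2 fold change was -0.25 (SE 0.103, range -0.36 to -0.15). Eid3, which overlaps the Txnrd1 locus, had 7 and 5 counts in Nat10 cKO-labelled libraries, against 20 and 18 in WT.

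Levels between genes were compared per kilobase of annotated exon, as TMM-scaled CPM per kilobase. Prdx1 stood highest in both groups, at 2689 ± 282 in Nat10 cKO-labelled libraries and 3199 ± 5.88 in WT (SD, n = 2 each), followed by Sqstm1 at 512 ± 23.5 and 905 ± 45.1. Srxn1 and Txnrd1 came next in both groups. Slc7a11 held position 7 at 46.9 ± 0.269 in Nat10 cKO-labelled libraries, where it overlapped Nfe2l2 at 47.2 ± 1.01, and position 5 at 88.9 ± 4.49 in WT, above Gclm. Nqo1 and Keap1 closed the order in both groups, with Nqo1 last at 11.03 ± 0.517 in Nat10 cKO-labelled libraries and Keap1 last at 22.5 ± 0.585 in WT. Apart from Nfe2l2 and Slc7a11, no neighbours in the order overlapped within a group. The exon length is the union over all GENCODE M21 transcripts, so a gene with long alternative exons such as Slc7a11 (13922 bases) is understated.

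**Figure D4:**
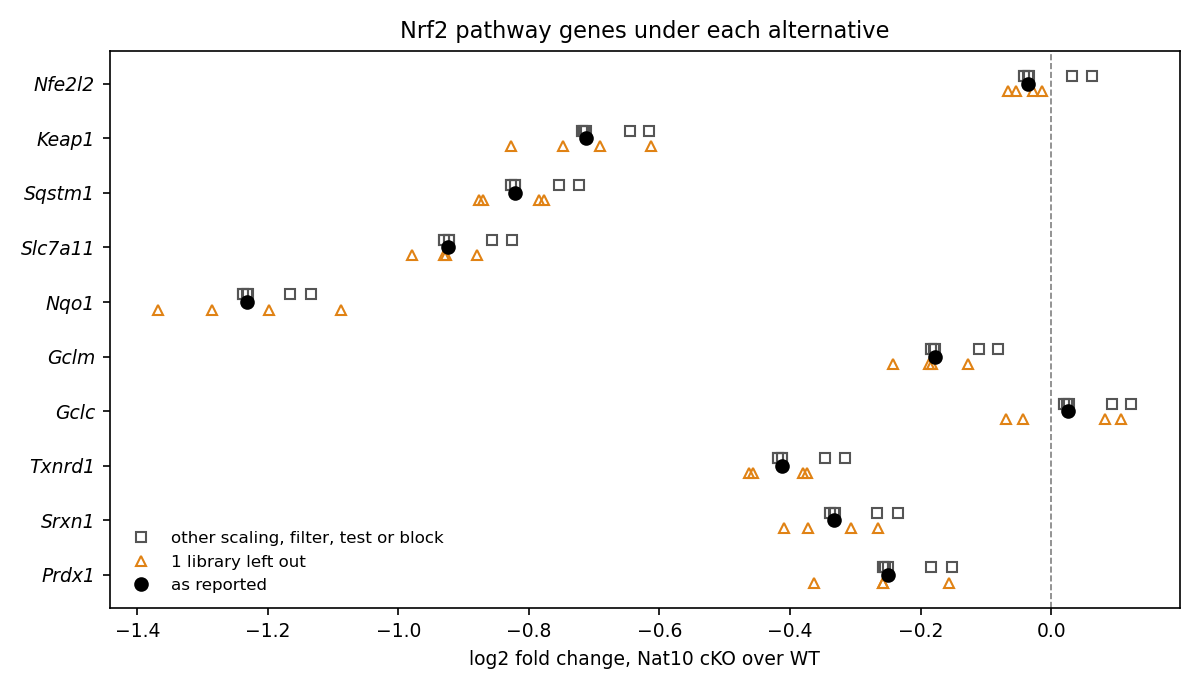
Log2 fold change (x axis, libraries labelled Nat10 cKO over WT) of the 10 Nrf2 pathway genes as reported (black), under other scaling, filter, test or block (squares) and with 1 library left out (triangles). Nfe2l2 and Gclc have values on both sides of 0, and the other 8 genes lie below 0 throughout.

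The other genes of the pathway were taken as 7 lists that exclude these 10 genes, counted in the fit over all genes. Over all genes 1652 rose and 1650 fell in that fit. With upper-quartile factors these numbers were 2247 and 1110, and with library size only 2026 and 1252. Of 22 tested regulators and partners of Nrf2, 2 rose and 7 fell, beside 14.4% in each direction over all genes, with a median log2 fold change of -0.22. That median was -0.12 without Nat10 cKO replicate 2 and with upper-quartile factors, and -0.15 without WT replicate 1. It was -0.27 without Nat10 cKO replicate 1 and -0.30 without WT replicate 2. Mafg and Maff, small Maf genes whose products pair with Nrf2, both fell. Mafg had 407 and 347 CPM in Nat10 cKO-labelled libraries, against 679 and 611 CPM in WT, or -0.78 on the log2 scale (SE 0.101, edgeR adjusted p = 1.29e-05). Maff was at -0.75. The other small Maf gene, Mafk, fell as well, at -0.44, but its call was not followed under the alternatives. It had 27.9 and 27.3 CPM in Nat10 cKO-labelled libraries, against 36.5 and 38.4 CPM in WT. The related factor Nfe2l1, which drives proteasome genes, fell by 0.55, and Trim21, a ubiquitin ligase that modifies Sqstm1, was at -1.202. The 2 that rose were Bach1 (0.40), a repressor that competes with Nrf2 for the same DNA elements, and Sesn1 (0.87), a stress-induced sestrin. The call of Bach1 ended in DESeq2 (0.40) and with any of 3 libraries left out: Nat10 cKO replicate 1 (0.11), WT replicate 1 (0.39) and WT replicate 2 (0.40). That of Sesn1 ended without Nat10 cKO replicate 2 (0.46). Cul3, the ligase that Keap1 serves, had 68.8 and 70.4 CPM in Nat10 cKO-labelled libraries, against 74.8 and 70.2 CPM in WT.

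Of 26 tested further target genes of Nrf2, 4 rose and 8 fell, beside 14.4% in each direction over all genes, with a median of -0.09. With 1 library left out the median ran from -0.15 (Nat10 cKO replicate 2 out) over -0.04 (WT replicate 2 out) to -0.0019 (Nat10 cKO replicate 1 out), and it was -0.02 with library size only. Hmox1, the haem oxygenase, had 2722 and 3011 CPM in Nat10 cKO-labelled libraries, against 4002 and 4280 CPM in WT, or -0.53 on the log2 scale (SE 0.0971, adjusted p = 0.000418). Osgin1, an oxidative stress response gene, fell by 0.65, with the call ending without WT replicate 2 (-0.53). The 4 that rose were Ephx1, the microsomal epoxide hydrolase (0.94), Idh1, the cytosolic isocitrate dehydrogenase (0.50), Ugdh, which makes UDP-glucuronate (0.43), and Fth1, the ferritin heavy chain (0.44). Ephx1 had 44.7 and 48.6 CPM in Nat10 cKO-labelled libraries, against 23.9 and 24.7 CPM in WT. Fewer genes of this list passed with either WT library left out, and fewer passed over all genes too. The calls of Ugdh and Fth1 ended with either WT library left out (0.44 and 0.41 with replicate 1 out, 0.40 and 0.46 with replicate 2 out), and that of Idh1 without WT replicate 1 (0.43). Both upper-quartile factors and no factors gave 4 that rose and 5 that fell, and upper-quartile factors turned the median positive (0.01).

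Of 22 tested cystine and glutathione genes, 6 rose and 4 fell, beside 14.4% in each direction over all genes, with a median of 0.23. Those that fell were Gss, the glutathione synthase, at 57.5 and 58.2 CPM in Nat10 cKO-labelled libraries against 84.4 and 93.4 CPM in WT (-0.62, SE 0.105, adjusted p = 0.000202), Gsr, the glutathione reductase (-0.43), Slc3a2, the heavy chain that pairs with Slc7a11 (-0.39), and Ggct (-0.56), which acts in glutathione turnover. Among those that rose, Gpx1, the main cytosolic glutathione peroxidase, had 427 and 516 CPM in Nat10 cKO-labelled libraries, against 247 and 263 CPM in WT (0.89, SE 0.103). Glrx, a glutaredoxin, rose by 0.67 and Gpx8, a peroxidase of the endoplasmic reticulum, by 2.04. The level of Gpx8 was low, at 8.45 and 6.69 CPM in Nat10 cKO-labelled libraries, against 1.84 and 1.80 CPM in WT. The stromal markers summed to 1131 and 1102 CPM in the same libraries, against 307 and 284 CPM in WT, and their part in these rises was not tested. Without WT replicate 2, where fewer genes passed over all genes too, the calls of Gsr (-0.40) and Slc3a2 (-0.35) ended. That of Ggct ended with Nat10 cKO replicate 2 (-0.53) or either WT library (-0.57 without replicate 1, -0.55 without replicate 2) left out, in DESeq2 (-0.56), with upper-quartile factors (-0.46) and with library size only (-0.49).

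Of 16 tested thioredoxin and peroxiredoxin genes, 4 rose and 3 fell, beside 14.4% in each direction over all genes. Their median was 0.04, which was -0.10 without Nat10 cKO replicate 2 and -0.01 without WT replicate 2. It was 0.12 without Nat10 cKO replicate 1, 0.01 without WT replicate 1, 0.14 with upper-quartile factors and 0.10 with library size only. Prdx5, a peroxiredoxin of mitochondria and peroxisomes, had 1570 and 1745 CPM in Nat10 cKO-labelled libraries, against 2468 and 2428 CPM in WT (-0.56, SE 0.0944, adjusted p = 0.000184). Txnip, the thioredoxin-binding arrestin, was at -0.69 and Txnl1 at -0.27. The mitochondrial Prdx3 (0.37), the endoplasmic reticulum Prdx4 (0.46), Prdx6 (0.31) and the methionine sulfoxide reductase Msrb2 (1.12) were higher. Without WT replicate 1, Prdx3 (0.40), Prdx4 (0.39), Prdx6 (0.26), Msrb2 (0.78) and Txnl1 (-0.29) lost their calls. Prdx3 (0.32), Prdx6 (0.35) and Txnl1 (-0.27) lost theirs without WT replicate 2. Over all genes, too, fewer passed with either WT library left out. Txnl1 (-0.27) and Msrb2 (1.21) also lost their calls without Nat10 cKO replicate 2, and Msrb2 without Nat10 cKO replicate 1 (1.03). Other settings that ended calls of this list were DESeq2 for Msrb2 (1.14) and Txnl1 (-0.28), and no filter (-0.27), library size only (-0.21) and upper-quartile factors (-0.18) for Txnl1.

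Of 11 tested genes of superoxide production and removal, 1 rose and 5 fell, beside 14.4% in each direction over all genes. Their median was -0.25, or -0.15 with upper-quartile factors. Of the phagocyte NADPH oxidase, which makes superoxide, Ncf1 had 499 and 472 CPM in Nat10 cKO-labelled libraries, against 684 and 711 CPM in WT (-0.52, SE 0.0911, adjusted p = 0.000262). Cybb was at -0.38, Cyba at -0.28 and Ncf4 at -0.28. The mitochondrial superoxide dismutase Sod2 fell by 0.51, while the extracellular Sod3 rose by 1.17, at 16.6 and 20.1 CPM in Nat10 cKO-labelled libraries against 6.84 and 9.32 CPM in WT. Both upper-quartile factors and no factors gave 2 that rose and 2 that fell. With either WT library left out fewer genes of this list passed, as over all genes. Cybb lost its call without Nat10 cKO replicate 2 (-0.22) or WT replicate 1 (-0.26), Cyba without Nat10 cKO replicate 1 (-0.18) or either WT library (-0.30 and -0.27), and Ncf4 without WT replicate 1 (-0.28) or WT replicate 2 (-0.30). All 3 lost it with upper-quartile factors (-0.29 for Cybb, -0.18 for Cyba and -0.19 for Ncf4) and with library size only (-0.32, -0.21 and -0.22).

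Of 20 tested partners of Sqstm1, the autophagy proteins and signalling adaptors it binds, 1 rose and 2 fell, with a median of 0.06. Over all genes 14.4% passed in each direction. The median of the partners was 0.01 without Nat10 cKO replicate 2, 0.15 with upper-quartile factors and 0.12 with library size only. Those that fell were Cyld (-0.34), the deubiquitinase that Sqstm1 brings to Traf6, and the kinase Tbk1 (-0.30), and the LIM protein gene Ajuba rose (1.12, at 4.23 and 2.79 CPM in Nat10 cKO-labelled libraries against 1.53 and 1.64 CPM in WT). None of the 3 was called in DESeq2 (-0.34 for Cyld, -0.31 for Tbk1, 1.13 for Ajuba) or with either WT library left out. With WT replicate 1 left out Cyld was at -0.39, Tbk1 at -0.33 and Ajuba at 1.07, and with WT replicate 2 left out they were at -0.29, -0.28 and 1.17. Cyld also lost its call without Nat10 cKO replicate 2 (-0.28), and Tbk1 (-0.23) and Ajuba (0.79) without Nat10 cKO replicate 1. Upper-quartile factors gave 4 that rose and 0 that fell, with Cyld at -0.24 and Tbk1 at -0.20. Library size only gave 3 and 0, with -0.27 and -0.23. Over all genes 2247 rose and 1110 fell with upper-quartile factors, and 2026 and 1252 with library size only. Tbk1 had no call without the filter either (-0.30). Traf6 had 66.2 and 62.9 CPM in Nat10 cKO-labelled libraries, against 61.9 and 61.6 CPM in WT, and Map1lc3b, an autophagosome protein that Sqstm1 binds, 112 and 121 CPM against 89.9 and 101 CPM.

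ATF4, the factor of the integrated stress response, also acts on Slc7a11, so its genes were set beside. Atf4 itself had 623 and 614 CPM in Nat10 cKO-labelled libraries, against 655 and 678 CPM in WT (-0.11, adjusted p = 0.401). Of 23 tested genes of this list, 2 rose and 8 fell, beside 14.4% in each direction over all genes. Their median was -0.07, which was -0.14 without WT replicate 1, -0.04 without WT replicate 2 and -0.01 with library size only. Nupr1, a stress-induced chromatin protein, had 61.9 and 59.7 CPM in Nat10 cKO-labelled libraries, against 138 and 150 CPM in WT (-1.24, SE 0.104, adjusted p = 4.90e-08). Ppp1r15a, which restores translation after stress, fell by 1.13, and Trib3, a pseudokinase that restrains ATF4, fell by 0.71. The lipoprotein receptor Vldlr (1.23) and Aldh18a1 (0.45), an enzyme of proline synthesis, rose, Aldh18a1 with no call in DESeq2 (0.45) or when Nat10 cKO replicate 2 (0.44) or either WT library (0.37 without replicate 1, 0.53 without replicate 2) was left out. Leaving out either WT library left fewer calls in this list, as it did over all genes. With upper-quartile factors 5 rose and 5 fell and the median was 0.03, and with library size only 4 rose and 5 fell.

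**Figure D5:**
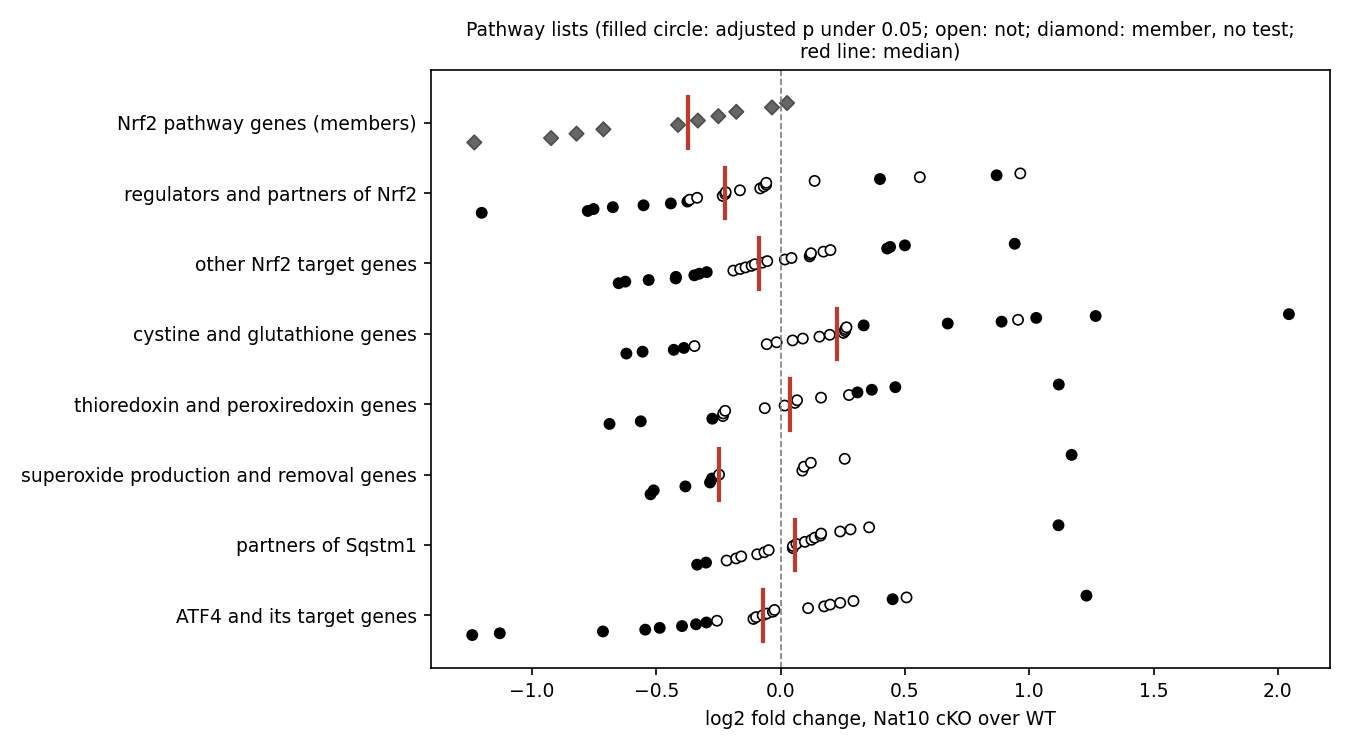
Log2 fold change (x axis, libraries labelled Nat10 cKO over WT) of each tested gene in 7 pathway lists and of the 10 Nrf2 pathway genes (diamonds, no test), with filled circles for an adjusted p under 0.05 and a red line at the median. The medians run from -0.37 for the 10 genes to 0.23 for the cystine and glutathione genes, and every list has genes on both sides of 0.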

How the data were processed

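The authors deposited a single table of unnormalized read counts by gene, as its headers and values show. The submitters' processing notes name fastp 0.20.0, STAR 2.7.9a, featureCounts 2.0 and build GRCm39, and no source used here gives the strand setting. Depth ranged from 10037338 to 14097638 counts per library. Whether the 2 libraries of each group are from different mice is not stated, so the spread behind the p-values may be purely technical.

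Genes passing filterByExpr (11448 of 21834) were fitted in edgeR 4.0.16 (R 4.3.3; TMM factors, a term for group, two-sided quasi-likelihood test). P-values were adjusted by the Benjamini-Hochberg method over all genes tested, and a gene was called at an adjusted p under 0.05. "Rose" and "fell" in the lists refer to such calls. Fold changes are log2, libraries labelled Nat10 cKO over WT, with the SE of the fit. The steps were tested on simulated counts in which the changed genes were known. That run does not vouch for the scaling or the calls in these data. The replicates differed by more than sampling noise (chi-square per gene 11.2 for the Nat10 cKO-labelled pair, 6.16 for WT). Alternatives were RLE, upper-quartile or no factors, no filter, DESeq2 1.42.0, a replicate block and each library left out. Promoters came from RefSeq (GRCm38.p6), whose coordinates are kept apart from the GRCm39 gene coordinates of the deposited table, and exon lengths from GENCODE M21, also on GRCm38.

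The 10 genes and the lists were chosen with earlier results of these data known. Named were the 10 genes, up to 4 called genes of each list with the smallest p, Slc3a2, Hmox1, Bach1, Atf4, Traf6, Cybb and Nat10, and the 3 nearest profiles to Sqstm1 and Slc7a11. Other genes, such as those completing a count of 5 or fewer, were named after their values were seen. A protein table was not used here.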

Additional observations from a re-analysis of the deposited data

How the results depend on the processing

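Upper-quartile factors moved the median log2 fold change of all genes tested to 0.11 and library size only to 0.07, against 0.01 with TMM factors, and the values of the 10 Nrf2 pathway genes moved up with it. The fit called 1652 genes higher and 1650 lower, and with upper-quartile factors 2247 and 1110. DESeq2 called 1065 higher, and 0 partners of Sqstm1 against 3 in edgeR. Leaving out 1 library at a time gave 864 to 1576 genes called higher and 973 to 1925 lower. Over those 4 fits the calls in the lists numbered 4 to 7 for the 10 genes (which were chosen on this comparison, so nothing is read from that), 6 to 9 for the regulators, 3 to 14 for the other Nrf2 targets, 5 to 11 for cystine and glutathione, 2 to 7 for thioredoxin and peroxiredoxin, 3 to 6 for superoxide, 0 to 3 for the partners of Sqstm1 and 6 to 11 for ATF4, and the lowest count came without a WT library in each. The calls over all genes, in each direction, were also fewest without a WT library. A library left alone in its group was assumed to vary like the other pair. The replicate numbers are shared between the groups, but nothing in the labels says that they pair the libraries, and same-numbered libraries deviated together only weakly (Pearson's r 0.130 across 11448 genes). With the replicate block 5 partners of Sqstm1 were called, 2126 genes were higher and 2175 lower. With 2 libraries per group, the precision of genes with few counts, such as Ajuba, Msrb2 and Ggct, is low. The cause of these changes was not tested.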
